A study of Camellia sinensis with 9 samples.

Results

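The 6 unigenes described here encode the enzymes that take chlorophyll apart. A unigene is a transcript sequence assembled from the reads without a genome. By the annotation of the study, 4 of them encode chlorophyllase (CLH; unigene56286, unigene90639, unigene11687 and unigene131928), 1 encodes pheophytinase (PPH; unigene5416) and 1 encodes pheophorbide a oxygenase (PaO; unigene89999). They were found by number among the 179951 unigenes of the series, and each had a value above 0 at all 3 stages. The study had selected these unigenes as differentially expressed on the same libraries, so differences between stages are described here and are not independent evidence. The enzyme names rest on the study's assignments alone, since no full unigene sequence was at hand to check them.

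The leaves came from ‘Anji Baicha’, a tea cultivar (Camellia sinensis) whose spring shoots are pale in cool weather and turn green later. Plants aged 4 years, with no treatment named, were sampled at the yellow-green (YG), albescent or white (W) and re-greening (G) stages, with 3 libraries of leaf RNA per stage and 9 in all. Stage is confounded with leaf position on the shoot, collection date and temperature, and these cannot be told apart. The deposited table holds 1 FPKM value (fragments scaled by the length of the unigene and by the mapped fragments) per unigene and stage. The libraries of a stage were thus combined before deposition, so no difference below has a replicate check here, no p-value was computed, and the fragments behind a value are unknown. The study itself tested stage differences on the FPKM of the 3 libraries per stage. It also reports a strong correlation of fold changes between qRT-PCR and sequencing over chosen unigenes. The values per library and per assay were not at hand.

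The FPKM values summed to between 349550 and 382235 per stage. The 10 unigenes with the highest mean FPKM held 16.5% of the sum in YG, 9.10% in W and 8.03% in G. Counts over the series use the 78868 unigenes that reached an FPKM of 1 at any stage, which include all 6 breakdown unigenes. Differences are given as changes of log2(FPKM + 1) with the earlier stage subtracted from the later, a scale that understates changes of weakly expressed unigenes. A change of at least 1 on this scale is called 2-fold. Leaf identity could not be checked against cell type markers because the table pairs no unigene with a gene name. The unigene listed for the H subunit of magnesium chelatase (CHLH unigene24228), which commits the pathway to chlorophyll, was at an FPKM of 49.2 or more at every stage. This unigene was picked after its values were seen, so its level is no check of leaf identity.

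Chlorophyll carries a long phytol tail that anchors it in the thylakoid membrane. Chlorophyllase removes the tail directly from chlorophyll and leaves chlorophyllide. In the route known from senescing Arabidopsis leaves, the magnesium is removed before the tail, and pheophytinase then cuts the tail from pheophytin to give pheophorbide. Pheophorbide a oxygenase, an iron-sulfur enzyme of the chloroplast envelope, opens the ring of pheophorbide a, after which the green colour is lost. The enzymes therefore stand at the tail-removal and ring-opening steps of breakdown.

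Of these unigenes, the study designed qRT-PCR primers for unigene131928 and unigene5416, the unigenes with the highest FPKM in G. The primers are shown because they are the only pieces of sequence at hand that tie these identifiers to a transcript. The last 5 bases of each primer, from which the polymerase extends, are in capitals.
CLH unigene131928 sense: caagaacccatggaaaaagAGCAG
CLH unigene131928 antisense: gaagggggaaagttgagtgtGAAAT
PPH unigene5416 sense: gactctcccattgttgtgctTGCTA
PPH unigene5416 antisense: tctctcctatcttctcctgtCCTGT

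The chlorophyllase unigenes differed in direction across the stages. Between YG and G, unigene131928 differed most, from near 0 to the highest level of the 6, unigene11687 was higher in G by less than 2-fold, and unigene90639 and unigene56286 were lower in G. Whether fewer cells expressed a unigene or each cell held less of its RNA cannot be told apart in whole leaves.

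The expression of unigene131928 stood at an FPKM of 0.0277 at YG, 4.44 at W and 56.0 at G. It was thus the lowest of the 6 in YG and the highest in G. Its log2 change was 2.41 in W vs YG, 3.39 in G vs W and 5.79 in G vs YG. As plain ratios of FPKM, W was 161-fold above YG and G was 12.6-fold above W. Only 0.0798% of the YG values above 0 in the whole series were lower than that of unigene131928, so any ratio against YG rests on a value close to the lower end of the table. G vs W does not use that value. In G, 99.3% of the 78868 unigenes counted had a lower FPKM than unigene131928, against 85.4% in W and 12.9% in YG.

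Few unigenes in the series were higher in G by as much. Only 20 of the 78868 unigenes counted had a larger log2 change than unigene131928 in G vs YG, 104 had a larger one in G vs W and 509 a larger one in W vs YG. Across all 179951 unigenes, 97 had an FPKM below 0.1 in YG and at least 10 in G. In 56 of these the W value was at least 1 and below the G value, and in 10 of the 56 the YG value was above 0, limits that were set after the values of unigene131928 were seen.

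The number of unigene131928 falls in a stretch of unigene numbers where unigenes with a value in G alone are frequent. Among the 5000 unigenes numbered nearest to it (129428 to 134428), 12.0% had a value only in G, 1.36% only in W and 0.84% only in YG, and 31.6% were listed at 0 in YG. Around the other 5 breakdown unigenes the share with a value only in G was between 0.04% and 0.54%. The median log2 change in G vs YG of the unigenes counted near unigene131928 was 0.39, against 0.02 to 0.05 near the other 5. Near unigene131928, 19 unigenes had an FPKM below 0.1 in YG and at least 10 in G, against 0 to 5 near the other members. In 6 of the 19 the W value was at least 1, as it was for unigene131928. The part of this stretch in the values of unigene131928 was not tested.

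**Figure D1:**
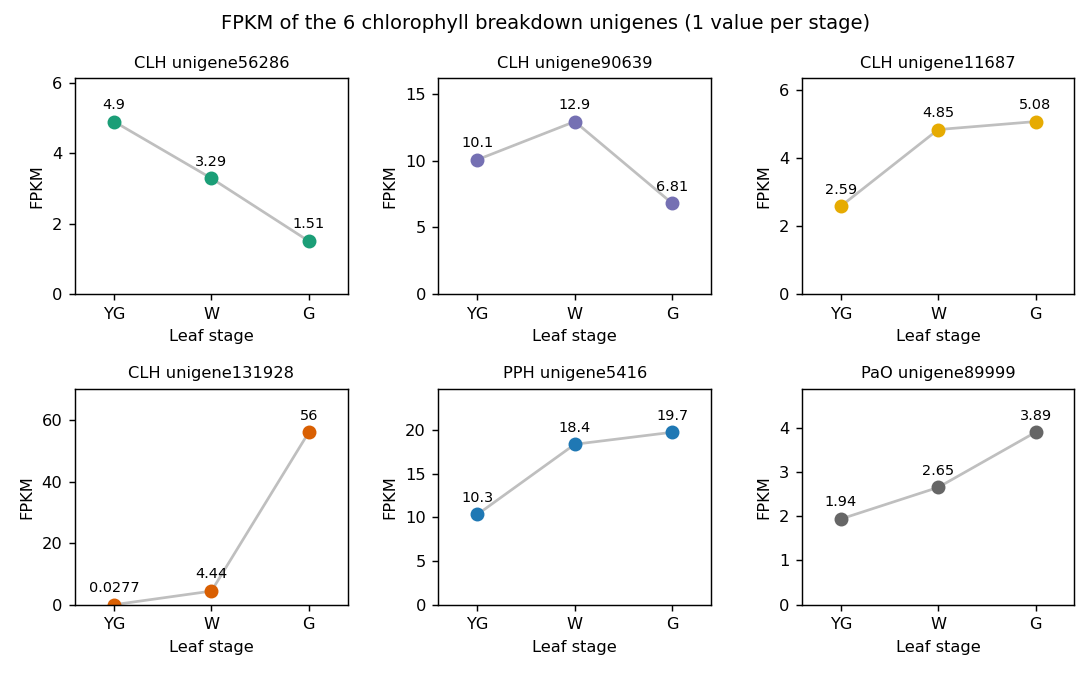
FPKM (vertical axes from 0, each panel on its own scale) of the 6 chlorophyll breakdown unigenes at the YG, W and G leaf stages. Each point is the authors' single value for a stage, printed above it, and no error bar can be given. Only unigene56286 is lower at each later stage (4.90, 3.29 and 1.51), and unigene131928 goes from 0.0277 to 56.0.

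The other chlorophyllase unigenes were expressed at moderate levels at every stage. The expression of unigene90639 stood at an FPKM of 10.1 at YG, 12.9 at W and 6.81 at G, with the highest value in W. Its log2 change was 0.33 in W vs YG and -0.84 in G vs W. It was the most abundant of the 4 CLH unigenes in YG and W, and the second in G after unigene131928.

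The expression of unigene56286 stood at an FPKM of 4.90 at YG, 3.29 at W and 1.51 at G, so each later stage was lower. The log2 change was -0.46 in W vs YG, -0.78 in G vs W and -1.24 in G vs YG. The YG value was 3.26-fold the G value. Among the 4 CLH unigenes it was the least abundant in W and G but the second most abundant in YG.

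The expression of unigene11687 stood at an FPKM of 2.59 at YG, 4.85 at W and 5.08 at G, so the difference lay almost wholly between YG and W. Its log2 change was 0.70 in W vs YG and 0.06 in G vs W. The order of W and G was not stable, since the change in G vs W was -0.0043 under upper-quartile scaling, -0.05 under quantile normalization and -0.03 when scaled to the total without the 10 highest unigenes.

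Added together, the 4 CLH unigenes amounted to an FPKM of 17.6 at YG, 25.5 at W and 69.4 at G. Without unigene131928 the sum was 17.6, 21.1 and 13.4, so it was highest in W and lowest in G. The direction of the CLH sum in both comparisons with G thus depended on 1 unigene. Its log2 change in G vs YG was 1.92 with unigene131928 and -0.37 without it.

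The make-up of the CLH signal also differed. In YG, unigene90639 gave 57.3% of the sum, unigene56286 27.8%, unigene11687 14.7% and unigene131928 0.157%. In W the shares were 50.7%, 12.9%, 19.0% and 17.4% in the same order, so unigene90639 still led. In G unigene131928 gave 80.7%, and unigene90639, unigene11687 and unigene56286 gave 9.82%, 7.33% and 2.17%. How the authors divided reads shared between similar unigenes is not described, so the split among CLH unigenes is less certain than the levels of unigenes without a close copy.

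**Figure D2:**
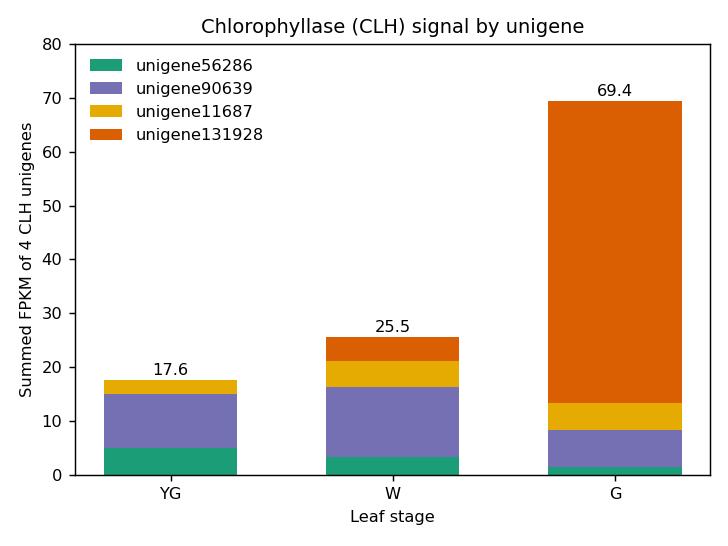
Summed FPKM of the 4 chlorophyllase (CLH) unigenes at each leaf stage, stacked by unigene, with the sum printed above each bar. The sum is 17.6 at YG, 25.5 at W and 69.4 at G, and unigene131928 makes up 0.157%, 17.4% and 80.7% of it.

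The study lists 2 more unigenes for CLH. The expression of unigene58748 stood at an FPKM of 13.1 at YG, 16.8 at W and 13.8 at G, above that of unigene90639 at every stage and with the same highest stage. That of unigene58581 was 2.31 at YG, 2.05 at W and 0.0999 at G, a log2 change of -1.59 in G vs YG. With both included, the CLH sum was 33.1, 44.4 and 83.3, a log2 change of 1.31 in G vs YG. In G vs YG, 1 of the 6 listed CLH unigenes thus passed the 2-fold limit upward (unigene131928). Another 2 passed it downward (unigene56286 and unigene58581), and 3 lay between these limits. Over the 78868 unigenes counted, the shares beyond the limits were 15.1% upward and 14.2% downward. Whether the 6 CLH unigenes differ from these shares was not tested.

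Pheophytinase was represented by unigene5416 alone. It stood at an FPKM of 10.3 at YG, 18.4 at W and 19.7 at G. The log2 change was 0.77 in W vs YG, 0.10 in G vs W and 0.87 in G vs YG, so W and G were close together and YG stood below both. At each stage at least 94.4% of the unigenes counted had a lower FPKM, so PPH was among the more abundant transcripts throughout. Quantile normalization gave -0.06 in G vs W, and each scaling tried kept YG the lowest.

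The pattern of unigene5416 was nearly that of the CLH unigene11687. Measured as the straight-line distance between the pairs of log2 changes in W vs YG and in G vs W, these 2 lay 0.08 apart. Each was the nearest to the other among the other 61 unigenes counted of the chlorophyll metabolism list. The next nearest to both was the HEMB unigene5974, at distances of 0.27 from each, at FPKM values of 41.6 (YG), 63.3 (W) and 78.3 (G). HEMB makes porphobilinogen early in tetrapyrrole synthesis. These likenesses rest on 2 differences among 3 stage values.

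Pheophorbide a oxygenase was expressed at the lowest level of the 3 enzymes. The expression of unigene89999 stood at an FPKM of 1.94 at YG, 2.65 at W and 3.89 at G, higher at each later stage. Its log2 change was 0.31 in W vs YG, 0.42 in G vs W and 0.74 in G vs YG. As a plain ratio, G was 2.01-fold above YG. The other PaO unigenes of the study were weaker still. The expression of unigene57362 stood at an FPKM of 0.393 at YG, 0.520 at W and 1.10 at G, and its pattern lay 0.19 from that of unigene89999. That of unigene137589 was 0.371 at YG, listed at 0 at W and 0.747 at G, and it never reached an FPKM of 1. The summed FPKM of the 3 PaO unigenes was 2.70 at YG, 3.17 at W and 5.74 at G.

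FPKM is divided by length, so the levels of the enzymes are set beside each other here. Sums also depend on how many assembled unigenes each enzyme was given, which differed between CLH, PPH and PaO. Whether several of them come from the same gene was not checked. PPH unigene5416 had 5.34-fold the FPKM of PaO unigene89999 at YG, 6.93-fold at W and 5.07-fold at G. The 4 CLH unigenes together had 1.70-fold the FPKM of PPH in YG, 1.39-fold in W and 3.52-fold in G. Without unigene131928 the CLH to PPH ratio was 1.70 at YG, 1.15 at W and 0.679 at G, so PPH stood above those 3 CLH unigenes together only in G. With the 2 other listed CLH unigenes included and unigene131928 left out, the ratio was 3.20 at YG, 2.17 at W and 1.39 at G, and the CLH sum was above PPH at every stage.

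The 3 comparisons share their stages. Over the 78868 unigenes counted, W was above YG for 39509 and below it for 36700. Of the 6 breakdown unigenes, W was above YG for 5 and below it for unigene56286. Only unigene131928 was at least 2-fold higher and none was at least 2-fold lower, where 11.4% and 9.11% of all unigenes counted were. The median log2 change was 0.52, against 0.00 over all unigenes counted. In G vs W the split was 4 higher and 2 lower, against 37059 higher and 39082 lower of all unigenes counted. Of the 6, only unigene131928 was at least 2-fold higher and none at least 2-fold lower, against 10.2% and 11.8% of all unigenes counted. The median was 0.08, against 0.00 over all.

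In G vs YG, 4 of the 6 were higher and 2 lower, where 37683 of all unigenes counted were higher and 37786 lower. The median log2 change of the 6 was 0.75, against 0.00 over all unigenes counted. Only unigene131928 was at least 2-fold higher and only unigene56286 at least 2-fold lower. With no pseudocount, PaO unigene89999 also passed the limit upward, at a log2 change of 1.01. In that setting, 41.6% of the unigenes counted that were above 0 at both stages passed in either direction. On the log2(FPKM + 1) scale, 15.1% of all unigenes counted passed the limit upward and 14.2% downward. Among the 25647 unigenes with a mean FPKM of at least 2, a level that each breakdown unigene reached, these shares were 17.7% and 13.3%. That minimum was set with the values in view. Counts of 1 in 6 are close to these shares. Apart from unigene131928 the sizes were ordinary, since 46.0% to 80.8% of all unigenes counted had a smaller change in G vs YG than each of the other 5.

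**Figure D3:**
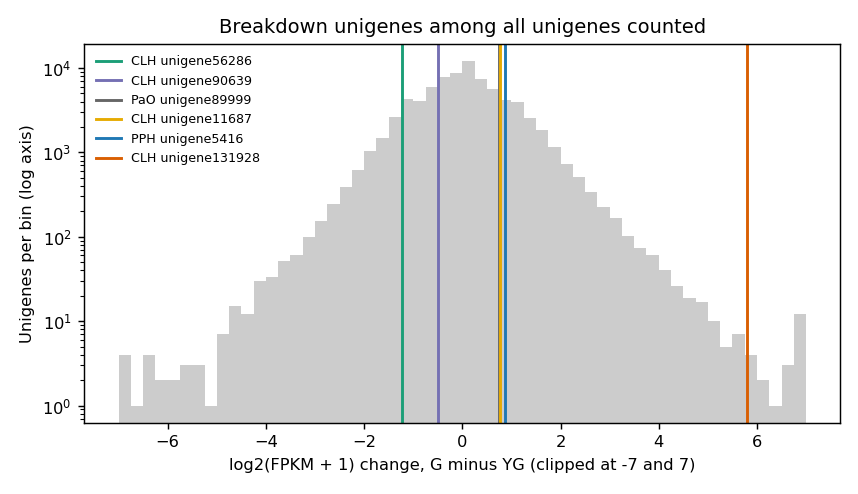
Histogram of the log2(FPKM + 1) change in G vs YG over the 78868 unigenes counted (bins of the horizontal axis against the number of unigenes on a log axis), with a vertical line for each breakdown unigene. The line of unigene131928 stands at 5.79 in the far right tail and the other 5 lie between -1.24 and 0.87, where the lines of unigene11687 (0.76) and unigene89999 (0.74) nearly coincide.

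The highest FPKM was in G for 4 of the 6, in W for unigene90639 and in YG for unigene56286. Over all unigenes counted the highest value was in G for 36.7%, in W for 27.9% and in YG for 35.4%. The 4 with the highest value in G were higher at both steps, as were 22.2% of all unigenes counted, and unigene56286 was lower at both steps, as were 21.7%. The place of the highest value depended on the scaling for unigene11687 and unigene5416, and the count with the highest value in G was 3 under upper-quartile scaling and when scaled to the total without the 10 highest unigenes, and 2 under quantile normalization. The lowest value was in YG for 4 of the 6, in G for the other 2 and in W for none. Over all unigenes counted, it was in YG alone for 33.3%, in G alone for 34.2% and in W alone for 21.4%.

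**Figure D4:**
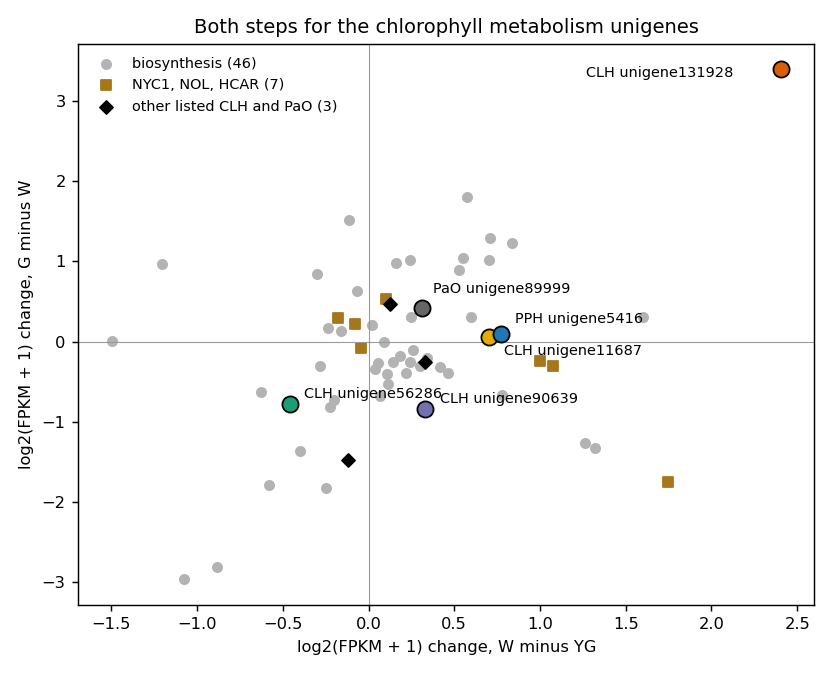
Change of log2(FPKM + 1) in W vs YG (horizontal axis) against that in G vs W (vertical axis) for the 62 unigenes of the chlorophyll metabolism list that reached an FPKM of 1 at any stage, with the 6 breakdown unigenes as large labelled points. PPH unigene5416 and CLH unigene11687 lie side by side at 0.77 and 0.70 on the horizontal axis, and unigene131928 lies alone at 2.41 and 3.39.

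The steps that lead into breakdown are those that turn chlorophyll b into chlorophyll a. In rice NYC1 and NOL form chlorophyll b reductase, and HCAR reduces its product to chlorophyll a. Of the 9 unigenes listed for these enzymes, 7 were counted. In W vs YG, 2 of the 7 were at least 2-fold higher and none at least 2-fold lower, against 11.4% and 9.11% of all unigenes counted. The 2 were the NYC1 unigene37738, at FPKM values of 15.9 (YG), 34.7 (W) and 27.9 (G), and the NYC1 unigene164039, at 2.36 in W and listed at 0 in YG and G. The NYC1 unigene26042, with 13.7, 28.3 and 23.7, had a change just short of the limit. Like PPH unigene5416, the NYC1 unigenes unigene26042 and unigene37738 had their lowest value in YG. In G vs W their log2 changes were -0.25 and -0.30, while that of unigene5416 was 0.10.

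The NOL and HCAR unigenes differed less. The expression of NOL unigene102125 stood at an FPKM of 3.81 at YG, 3.25 at W and 4.22 at G, and that of unigene90786 was 2.12, 1.96 and 2.44. The third NOL unigene, unigene57365, stayed below 1 at every stage. The FPKM of the HCAR unigene168719 was 3.12, 3.42 and 5.37, with the same order of stages as PaO unigene89999. The HCAR unigene32163 had 1.29, 1.22 and 1.09, and unigene38487 stayed below 1. In G vs YG, none of the 7 unigenes counted for NYC1, NOL and HCAR passed the 2-fold limit in either direction. For comparison, 15.1% of all unigenes counted passed it upward and 14.2% downward. The NYC1 unigene164039, listed at 0 in YG and in G, could not pass. Whether the 7 unigenes differ from these shares was not tested.

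The biosynthesis part of the list had a median below 0 in G vs W. Of its 51 unigenes 46 were counted, with a median log2 change of 0.13 in W vs YG, -0.23 in G vs W and 0.00 in G vs YG. In G vs YG, 10 of the 46 passed the 2-fold limit upward and 8 downward, where 15.1% and 14.2% of all unigenes counted did. The 9 unigenes counted of the 10 listed for CLH, PPH and PaO had medians of 0.33, 0.06 and 0.59 in the same comparisons. The 6 breakdown unigenes, which the study picked from that list as differentially expressed, had medians of 0.52, 0.08 and 0.75. The difference between the lists was not tested.

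Several biosynthesis unigenes had patterns near those of the breakdown unigenes. The nearest to CLH unigene56286 were the HEMB unigene71483 (distance 0.22), at FPKM values of 7.37 (YG), 4.42 (W) and 2.49 (G), and the CHLG unigene4795 (0.24), with 6.18, 5.15 and 2.503. The study reports unigene4795 as higher in G than in YG, which is the reverse of these deposited values. The reason for that difference was not tested. CHLG attaches the phytol tail that CLH removes. The nearest to CLH unigene90639 were the CHLD unigene24743 (0.31), with 4.84, 5.12 and 2.83, and the HEME unigene90629 (0.38), with 12.0, 13.1 and 8.78. CHLD is a subunit of magnesium chelatase, and HEME decarboxylates uroporphyrinogen.

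The nearest to PaO unigene89999 was the CHLP unigene1182 (0.13), at FPKM values of 1.92 (YG), 2.46 (W) and 3.29 (G). CHLP, geranylgeranyl reductase, makes the phytol used for the tail. No unigene of the list came near unigene131928. The closest was the CAO unigene37586, for the enzyme that makes chlorophyll b, at a distance of 2.43 and at FPKM values of 1.91 (YG), 3.33 (W) and 14.1 (G). The next was CHLH unigene24228 at 2.67, with 49.2, 88.4 and 208.8.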

How the data were processed

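RNA from ‘Anji Baicha’ leaves at the YG, W and G stages (3 libraries per stage, 9 in all) had been sequenced by the authors on an Illumina platform. The authors filtered the reads, assembled unigenes de novo with Trinity and further assembly steps, and deposited FPKM values from Cufflinks (2.1.1 in the submitters' processing notes; the methods name another release). The aligner, the treatment of shared reads and the way libraries were combined are not given in the sources used here. The deposited FPKM hold 1 value per unigene and stage, so the planned limma test could not be run, and the fallback of the design was used: counts of unigenes whose log2(FPKM + 1) differed by at least 1, among those that reached an FPKM of 1 at any stage. The deposited values do not give the fragments behind them. The study reports the reads of each library, but not those mapped to each unigene, so the precision of a value is unknown. The members and lists were chosen with earlier results of these data known.

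The chlorophyll metabolism list came from the study's annotation. It was taken as the 70 different identifiers found in the series, slightly fewer than the study's own count. The unigenes named are the 6 members, the other unigenes listed for CLH and PaO, those for NYC1, NOL and HCAR, and for each member the 2 of the list with the nearest pair of log2 changes. Enzyme roles follow the symbols of the list. CHLH unigene24228, named as a pathway reference, was added after its values were seen. None of the identifiers matched the reference gene table (0 of 179951), so no position is given. Alternatives were a pseudocount of 0.1 or none, a fold of 1.5, no filter, upper-quartile (75th percentile), median-ratio and quantile scaling, a total without the 10 highest unigenes, and every unigene listed for an enzyme. Leaving out unigene131928, also from all listed CLH unigenes, and the mean FPKM minimum of 2 were added after the data were seen. The counting steps were tested on simulated stages with little noise. The planted changes were larger than those of every member but unigene131928, so the recovery of smaller changes was not covered. Python 3.11.15 with numpy 2.4.6, pandas 2.3.3 and matplotlib 3.10.9 was used.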

Additional observations from a re-analysis of the deposited data

How the results depend on the processing

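The values rest on 1 FPKM per stage, so no result has a spread between plants. No paired analysis was possible because the deposited columns carry no replicate numbers, and for the same reason no library could be left out. With a fold of 1.5 in place of 2, 3 of the 6 breakdown unigenes were apart in W vs YG (36.5% of all unigenes counted), 3 in G vs W (39.3%) and 5 in G vs YG (48.8%). In G vs W, 2 were at least 2-fold apart with a pseudocount of 0.1 (39.2% of all) or with none (31.9% of those above 0 at both stages), unigene131928 and unigene56286. In G vs YG the count was 3 with no pseudocount, where PaO unigene89999 passed as well (41.6% of all unigenes above 0 at both stages). Without unigene131928 the counts were 0, 0 and 1, and the CLH sum had a log2 change of -0.62 in G vs W and -0.37 in G vs YG. The median log2 change in G vs W was -0.058 under quantile normalization and -0.012 when scaled to the total without the 10 highest unigenes. The number with the highest FPKM in W became 2 under upper-quartile scaling and under that total, and 3 under quantile normalization, which left 2 with the highest in G. The log2 change of unigene131928 in G vs YG was 8.78 with a pseudocount of 0.1 and 10.98 with none. Each scaling moved the median of the 29995 unigenes at 1 or more in every stage by less than 0.1. The cause of these differences was not tested.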
